A study of Rattus norvegicus with 12 samples.

Results

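Diabetic treated (DT) and healthy treated (HT) rats both drank sodium tungstate, and their pancreases were compared to find which transcripts differed between diabetic and healthy animals when both received the drug. The comparison used the 3 DT arrays and the 3 HT arrays, which the sample labels name, so 6 of the 12 arrays of the study were members. The other 6 arrays came from healthy untreated (HU) and diabetic untreated (DU) rats, and served to estimate the spread and to give the same comparison without tungstate. All animals were adult male Wistar rats, and transcripts of the entire pancreas were measured on Affymetrix RAE230-A arrays. Each array held RNA pooled from 3 rats of a group, 9 rats per group in all, and p-values therefore measure the spread between pools.

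Diabetes was induced in the DT and DU animals by an intraperitoneal injection of streptozotocin at 70 mg/kg, and the HT and HU animals are labelled healthy. The methods give tungstate at 2 mg/ml in the drinking water for 5 weeks, whereas the labels give 0.7 g/L for the first week and 2 g/L for a further 4 to 5 weeks. According to the labels, the DT rats were treated until glycemia had come down close to normal and the HT rats stayed normoglycemic throughout. The study itself describes the recovery of glycemia in diabetic treated animals as partial. The methods also give a higher daily intake of tungstate in the diabetic than in the healthy treated animals, so the dose taken and diabetes cannot be told apart. Injection of streptozotocin leaves an adult animal with damaged islets, and is a model of insulin deficiency rather than of an autoimmune or an obese diabetes.

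The pancreas is made mostly of acinar cells, which synthesize digestive enzymes, with ducts that carry these to the gut and islets that release hormones to the blood. Beta cells of the islet make insulin, and streptozotocin reaches them through the glucose transporter Slc2a2 and destroys them. Insulin deficiency raises blood glucose and fatty acids, to which the acinar tissue is exposed as well, and acinar amylase is known to depend on insulin.

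The values were log2 intensities, so a difference of 1 is a 2-fold change. Arrays DT3 and HT3 were scanned on the same day and came from the same chip lot, whereas DT1 and DT2 shared a scan day and a lot that no HT array had, and HT1 and HT2 shared another of each. For that reason the difference DT3 minus HT3, which has 1 array on each side and no test, is given beside the difference of the means as the value within a scan day and a chip lot. Array medians lay between 6.63 and 6.70 over the 12 arrays, and correlations between arrays lay between 0.976 and 0.995. Between a DT array and an HT array the correlation was 0.98 to 0.989, against 0.984 to 0.989 within DT and 0.987 to 0.995 within HT.

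The labelled tissue was checked against markers of the cell types of the pancreas. The acinar markers Cpa1, Cela1, Ctrb1, Pnlip and Prss1 had levels from 13.96 to 14.48 in the 6 DT and HT arrays. Of the duct markers, Krt19 lay between 7.19 and 8.10 and Krt7 between 5.47 and 5.67 in those arrays, and the islet, matrix, leukocyte and endothelial markers were measured too. Cftr, Cdh5, Adipoq and Hba-a1 were not analysed here. The smallest value on an array was between 3.44 and 3.51, and no marker was at that floor.

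Of 15866 probe sets tested, 148 passed an adjusted p under 0.05 in DT compared to HT, which is 0.933%. The probe sets higher in DT numbered 101 (0.637%), and those lower in DT numbered 47 (0.296%). They belonged to 126 distinct genes, with 11 probe sets without a gene symbol and 7 with several. The median change among them was 1.58-fold, and the range was from 1.27-fold to 9.85-fold. The study's own criterion, a B-statistic above 0, selected 154 probe sets (0.971%), and 2020 (12.7%) had an unadjusted p under 0.05. Arrays of the DT and HT groups did not overlap for 2516 probe sets (15.9%), and 147 of the 148 were among them. Scg2 was the exception, a gene chosen here after its values were seen.

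Insulin transcripts were the largest falls. Ins2 and Ins1 are the duplicate insulin genes of the rat, and Iapp encodes amylin, which beta cells release together with insulin. The level of Ins2 was 9.58, 9.56 and 11.11 in DT1, DT2 and DT3, and 13.47, 13.36 and 13.32 in HT1, HT2 and HT3. All the DT arrays were lower than every HT array, and DT3 was the highest of the DT group. The difference was -3.30 ± 0.31 (log2, SE, n = 3 and 3), or 9.85-fold lower, with an adjusted p of 0.000338 by limma. Within the shared scan day it was -2.21. Ins1 had levels of 11.43, 11.06 and 12.36 in DT and of 13.84, 13.76 and 13.62 in HT. These groups did not overlap either, and the difference was -2.12 ± 0.24, or 4.35-fold lower (adjusted p = 0.00105 by limma), with -1.26 in DT3 minus HT3. From RNA of whole tissue alone, fewer beta cells and less RNA per beta cell cannot be told apart. In stained sections, the study measured a smaller insulin area in diabetic treated than in healthy animals, treated or not. The part of this in the RNA differences was not tested.

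The promoters of both insulin genes, which were lower together, are shown because they are close copies of each other. They are RefSeq windows on the rat build GRCr8, 300 bases long and read 5′ to 3′ along the gene to shortly after its start, and capitals mark the letters CATCTG of an E box and the letters TATAAA of a TATA box, searched on both strands.
Ins1, chr1:261185869-261186168, plus strand: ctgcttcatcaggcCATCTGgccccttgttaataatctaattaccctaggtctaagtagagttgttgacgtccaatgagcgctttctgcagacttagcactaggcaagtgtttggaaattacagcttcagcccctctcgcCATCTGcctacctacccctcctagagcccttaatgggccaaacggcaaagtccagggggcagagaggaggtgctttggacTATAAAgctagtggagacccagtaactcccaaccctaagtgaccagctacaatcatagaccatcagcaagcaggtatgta
Ins2, chr1:207273756-207274055, minus strand: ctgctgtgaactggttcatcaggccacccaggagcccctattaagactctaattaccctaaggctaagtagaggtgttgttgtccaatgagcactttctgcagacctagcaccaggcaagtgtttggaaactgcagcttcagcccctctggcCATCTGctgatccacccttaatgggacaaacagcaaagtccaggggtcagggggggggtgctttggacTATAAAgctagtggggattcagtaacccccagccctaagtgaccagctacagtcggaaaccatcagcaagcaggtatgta

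In a global alignment, 254 of the 287 aligned bases were identical (88.5%). The E box letters occurred 2 times in the Ins1 window and 1 time in the Ins2 window, against at least 1 match in 16.6% of all 33469 promoters of this length, and the TATA box letters occurred 1 time in each, against 14.2% of promoters. The exact letters CTAATG, searched as an A box, and TGACGTCA, a cyclic AMP response element, were in neither of these windows. They were in 8.68% and 1.83% of promoters. Other forms of these elements were not searched, so the windows may hold them. Letter matches describe the sequence and are no measure of binding. The coding sequences of Ins1 and Ins2 are also alike, so signal of one may reach the probe set of the other, which was not tested.

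The beta cell list held 31 genes, of which 21 were measured. None was called higher and 4 were called lower in DT, against 0.296% of all probe sets, and 17 of the 21 differences were below 0, with a median of -0.16 compared to -0.01 over all genes. Slc2a2 had levels of 5.88, 5.42 and 5.84 in DT and 7.57, 7.21 and 7.28 in HT. Here DT3 lay inside the range of DT1 and DT2, all DT arrays were below all HT arrays, and the difference was -1.64 ± 0.16 (3.12-fold, adjusted p = 0.000411), with -1.44 in DT3 minus HT3. Iapp had levels of 8.78, 8.52 and 9.89 in DT and 10.86, 10.69 and 10.25 in HT, a difference of -1.54 ± 0.27 (2.90-fold, adjusted p = 0.0165). Between DT3 and HT3 it was -0.36. The call of Iapp was lost without DT1, HT1 or HT2 (adjusted p of 0.0807, 0.0897 and 0.0679), whereas Ins1, Ins2 and Slc2a2 kept theirs whichever of the 12 arrays was left out. With the chip lot as a block, Ins2, Ins1 and Slc2a2 were still called (adjusted p of 0.00813, 0.0244 and 0.00701) and Iapp was not (0.186).

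Among genes that process and store peptide hormones, Pcsk2, Cpe, Resp18, Pcsk1n and Scg2 fell. They were the 5 called lower of 32 measured genes of prohormone processing and neuroendocrine granules, against 0.296% of all probe sets, and none was called higher, with a median of -0.11. Pcsk2 is the convertase that cleaves proinsulin and proglucagon. It had levels of 5.50, 5.42 and 5.75 in DT and 6.41, 6.28 and 6.42 in HT, a difference of -0.81 ± 0.11 (1.76-fold, adjusted p = 0.00385), with -0.67 between DT3 and HT3. Carboxypeptidase E (Cpe), which trims the cleaved peptides, had levels of 6.62, 6.36 and 7.65 in DT and 8.81, 8.84 and 8.0 in HT. DT3 and HT3 lay closest to each other, at -0.35, while the difference of the means was -1.67 ± 0.28 (3.18-fold, adjusted p = 0.0134). Resp18, a protein of endocrine granules, differed by -1.12 ± 0.21 (adjusted p = 0.0238), and Pcsk1n, whose product inhibits a prohormone convertase, by -0.73 ± 0.15 (adjusted p = 0.0373). For secretogranin II (Scg2) the groups overlapped, with 5.22, 5.06 and 6.42 in DT and 7.31, 7.49 and 6.36 in HT, a difference of -1.49 ± 0.32 (adjusted p = 0.0473) and of 0.06, with the opposite sign, between DT3 and HT3. Its call was lost in 10 of the 12 fits that left out an array, with the highest adjusted p, 0.196, without HT1. Pcsk2 kept its call whichever array was left out. Cpe lost it without DT1, HT1 or HT2 (adjusted p of 0.0704, 0.0740 and 0.0618), Resp18 without DT1, DT2, HT1 or HT2 (0.0988, 0.0634, 0.124 and 0.0867), and Pcsk1n in 7 of the 12 fits, among which those without DT1 or HT1 gave 0.145 and 0.16.

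For the hormones of the other islet cells no change was called. None of 14 measured genes of the other islet hormones and their regulators was called, and the median difference was -0.05. Glucagon (Gcg, alpha cells) had levels of 8.36, 7.79 and 9.32 in DT and 8.23, 8.40 and 7.83 in HT, a difference of 0.33 ± 0.29 (adjusted p = 0.683). Somatostatin (Sst, delta cells) had 8.98, 8.68 and 10.10 in DT and 9.28, 9.31 and 8.87 in HT. Pancreatic polypeptide (Ppy) had 9.55, 8.58 and 10.15 in DT and 9.61, 9.73 and 9.66 in HT. DT3 was the highest of the 6 arrays for all 3 of these hormones, and DT2 the lowest. The same DT3 array had the highest Ins1, Ins2, Iapp, Pcsk2, Cpe and Scg2 of the DT group, and the part that a different islet content of the pools had in this was not tested. Summed over the 3 markers Gcg, Sst and Ppy on the linear scale, the signal was 1583, 1014 and 2878 in DT1, DT2 and DT3 and between 1506 and 1819 in HT, while the sum of Ins1, Ins2 and Iapp was 3967, 3262 and 8429 in DT and between 24072 and 27830 in HT.

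**Figure D1:**
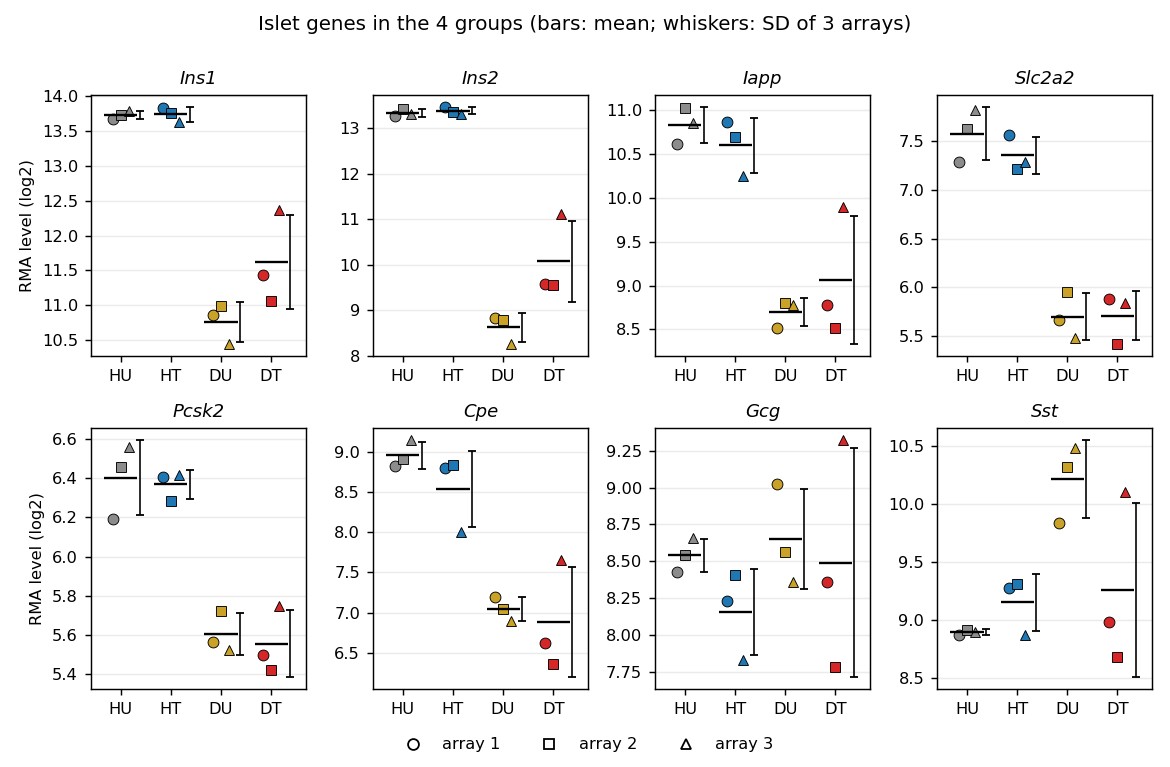
RMA levels (log2, vertical axis) of 8 islet genes in the 4 groups (horizontal axis), with 1 symbol per array, the mean as a bar and the SD of 3 arrays as a whisker. Ins1, Ins2, Iapp, Slc2a2, Pcsk2 and Cpe are lower in all 3 DT arrays than in any HT array. The triangle of DT3 stands above DT1 and DT2 for Ins1, Ins2, Iapp, Pcsk2, Cpe, Gcg and Sst.

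The largest rise was that of 1810009J06Rikl, a trypsinogen-like gene that RefSeq also lists as Try4. Its level was 13.52, 12.85 and 12.95 in DT and 10.52, 11.03 and 10.60 in HT. The groups were far apart, the difference was 2.39 ± 0.24 (5.24-fold, adjusted p = 0.000411), and DT3 minus HT3 was 2.35. The trypsinogens are a family of near-identical genes, so it is uncertain which member gave this signal. DU was also above HU for this gene, by 3.09.

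Next came Herc4, a ubiquitin ligase, with levels of 8.60, 8.94 and 7.36 in DT and 6.36, 6.19 and 5.57 in HT, a difference of 2.26 ± 0.33 (4.79-fold, adjusted p = 0.00573). Array 3 was the lowest of its group on each side, and DT3 minus HT3 was 1.79. Errfi1, whose product is a feedback inhibitor of the epidermal growth factor receptor, had levels of 9.97, 9.55 and 9.34 in DT and 7.71, 8.30 and 7.63 in HT. This was a difference of 1.74 ± 0.26 (3.34-fold, adjusted p = 0.00681), and 1.71 between DT3 and HT3. Dusp6, the phosphatase that inactivates Erk kinases, had levels of 9.52, 9.57 and 10.89 in DT and 8.54, 8.56 and 8.13 in HT. No DT array reached down to the HT arrays, and the difference was 1.58 ± 0.28 (3.00-fold, adjusted p = 0.0165). It was 2.75 in DT3 minus HT3 and 1.0 in arrays 1 and 2. Dusp6 lost its call without HT1 or HT3 (adjusted p of 0.0562 and 0.0639), and its other 2 probe sets gave 0.82 and 0.89 with adjusted p of 0.0582 and 0.162. In the list of Erk feedback and immediate early genes, Dusp6 was the 1 called gene of 28 measured, and the median was 0.03. That is 3.57% of the list, against 1.19% of all genes. Egr1, an immediate early gene of the same list, differed by 0.71 ± 0.18 (adjusted p = 0.0861).

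Sat1 and Gls2, enzymes of polyamine and glutamine metabolism, were also among the largest rises. Sat1, the acetyltransferase that starts polyamine breakdown, had the smallest adjusted p of all, 6.77e-05 by limma. Its levels were 7.83, 7.89 and 8.12 in DT and 6.41, 6.61 and 6.72 in HT, a difference of 1.37 ± 0.10 (2.58-fold) that was 1.40 between DT3 and HT3. Glutaminase 2 (Gls2), which makes glutamate from glutamine, had levels of 11.64, 11.40 and 10.84 in DT and 9.82, 9.99 and 9.89 in HT, a difference of 1.39 ± 0.15 (2.63-fold, adjusted p = 0.000805), with 0.95 between DT3 and HT3. Ahcy, which clears S-adenosylhomocysteine, differed by 0.77 ± 0.13 (1.71-fold, adjusted p = 0.0134). These were the 3 genes called higher among 63 measured genes of amino acid metabolism and the aminoacyl-tRNA synthetases. In either direction 6.35% of the list was called, against 1.19% of all genes. The creatine-forming methyltransferase Gamt was the 1 called lower, by -0.53 ± 0.10 (adjusted p = 0.0221), and 42 of the 63 differences were above 0, with a median of 0.16. Sat1 and Gls2 kept their calls whichever array was left out. Ahcy lost its call without DT1, HT1 or HT2 (adjusted p of 0.0648, 0.0672 and 0.0593), and Gamt without DT1, HT1, HT2 or HT3 (0.0807, 0.0799, 0.0697 and 0.0710).

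Further genes among the largest rises were Tc2n, C2cd4b and Tspan8, none of which lost its call when an array was left out. Tc2n had levels of 10.08, 10.02 and 9.55 in DT and 8.42, 8.54 and 8.33 in HT (1.45 ± 0.13, 2.74-fold, adjusted p = 0.000272). C2cd4b had levels of 9.93, 9.91 and 10.86 in DT and 8.96, 8.63 and 8.69 in HT (1.47 ± 0.22, 2.78-fold, adjusted p = 0.00573). DT3 was again the outermost of the DT arrays, below the other DT arrays for Tc2n and above them for C2cd4b, for which DT3 minus HT3 was 2.18. Tspan8, a tetraspanin of the cell surface, had levels of 7.15, 6.77 and 6.54 in DT and 5.46, 5.53 and 5.42 in HT (1.35 ± 0.13, 2.55-fold, adjusted p = 0.000340). A fit with the scan day as a block takes the difference from DT3 minus HT3 alone, and its spread, on 3 residual degrees of freedom, from the other arrays, so both lone arrays are assumed to vary like those. In that fit Tc2n, C2cd4b, Sat1, Herc4 and Dusp6 were called (adjusted p of 0.0156, 0.00245, 0.0175, 0.0125 and 6.03e-05). Tspan8, 1810009J06Rikl, Gls2 and Errfi1 were not (0.0766, 0.0946, 0.0607 and 0.0550), with DT3 minus HT3 at 1.12 for Tspan8. With the chip lot as a block Dusp6 was not called (0.105), and the other 8 of these genes were. Rbm3, an RNA-binding protein induced by cold, differed by 1.12 ± 0.24 (adjusted p = 0.0492), a call that 9 of the 12 fits with an array left out did not make, with an adjusted p of up to 0.191 without DT1.

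**Figure D2:**
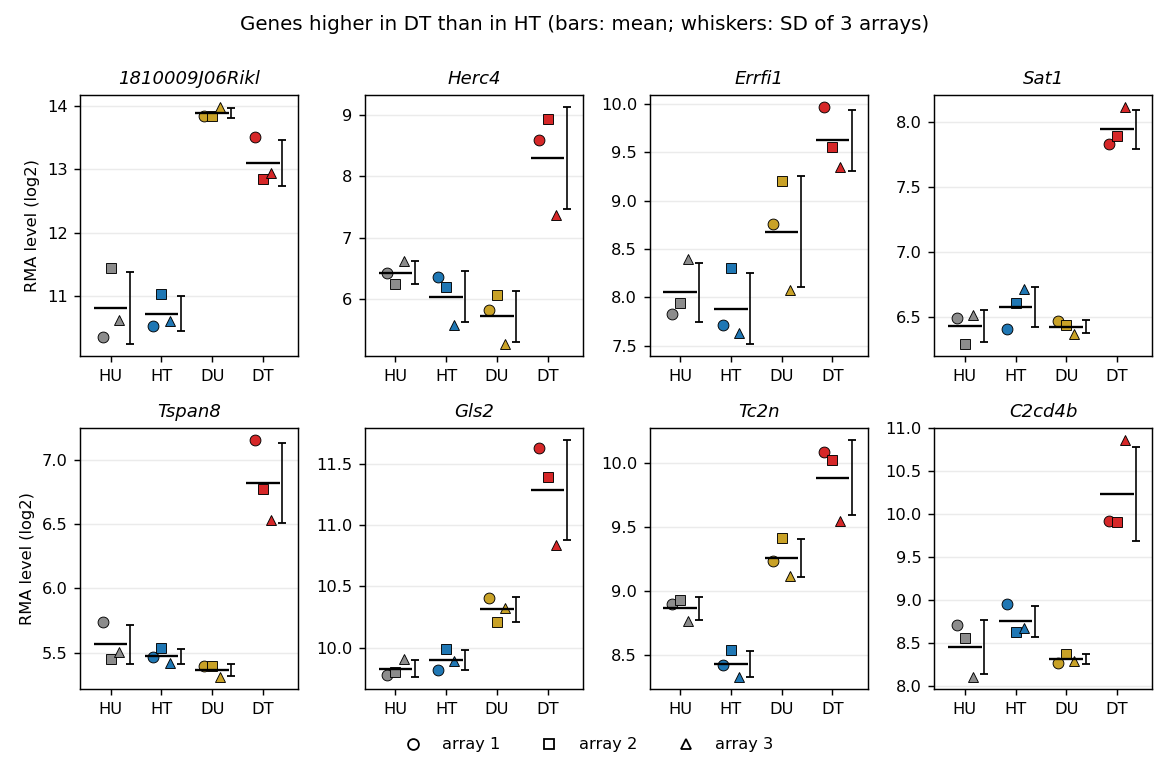
RMA levels (log2, vertical axis) of 8 genes called higher in DT than in HT, in the 4 groups (horizontal axis), with 1 symbol per array, the mean as a bar and the SD of 3 arrays as a whisker. The 3 DT arrays are above the 3 HT arrays in every panel, and for 1810009J06Rikl the DU arrays are also high, whereas for Sat1, Herc4, Tspan8 and C2cd4b DU minus HU lies between -0.71 and 0.00.

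Falls outside the islet lists included Clu, Ccnd2 and Scd. Clusterin (Clu), a secreted chaperone, had levels of 9.45, 8.99 and 10.79 in DT and 11.76, 11.61 and 11.75 in HT, a difference of -1.96 ± 0.31 (3.90-fold, adjusted p = 0.00850), which was -0.95 between DT3 and HT3. It lost its call without DT1 (adjusted p = 0.0537), and its second probe set gave -0.44 (adjusted p = 0.111). Cyclin D2 (Ccnd2), which drives entry into the cell cycle, had levels of 8.11, 8.04 and 8.71 in DT and 9.47, 9.56 and 9.82 in HT. The difference was -1.33 ± 0.23 (2.52-fold, adjusted p = 0.0165), with -1.11 between DT3 and HT3. Its call was lost without DT1, HT1, HT2 or HT3 (adjusted p of 0.0776, 0.0518, 0.0525 and 0.0644). Ccnd2 was the 1 called gene among 36 measured genes of the cell cycle (2.78%, against 1.19% of all genes), whose median was -0.02. Sox4, a transcription factor of the developing islet, was lower by -0.74 ± 0.14 (adjusted p = 0.0220) in 1 of its 3 probe sets, with -0.18 and 0.15 in the others (0.447 and 0.751), and this call was lost without DT1 or DT2 (0.0988 and 0.0557). Prune2 was lower by -0.89 ± 0.14 in 1 probe set (adjusted p = 0.010, and 0.0532 without DT1) and by -0.58 in another (0.00573). C5h9orf152 was lower by -1.0 ± 0.21 (adjusted p = 0.0451), in a call that 10 of 12 fits with an array left out did not make, with 0.181 as the highest value, without DT1.

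Most digestive enzymes were not called between DT and HT. Of 23 measured enzyme genes, 2 were called higher and 1 lower in DT, and the median difference was -0.01. These calls were 13% of the list, against 1.19% of all genes. The median level of the list lay between 14 and 14.14 in the DT and HT arrays. Whether probe sets this bright can still show a change was not tested. Carboxypeptidase Cpa1 differed by 0.08, elastase Cela1 by -0.06 and lipase Pnlip by -0.02, with adjusted p of 0.696, 0.823 and 0.944. Pancreatic amylase (Amy2a3) had levels of 13.17, 12.98 and 12.70 in DT and 13.02, 13.13 and 12.80 in HT. These overlapped, and the difference was -0.04 with a 95% interval from -0.95 to 0.88. Amy1, a closely related amylase gene whose transcript may share signal with Amy2a3, had levels of 8.39, 8.44 and 8.35 in DT and 10.27, 10.38 and 9.07 in HT, a difference of -1.51 ± 0.25 (2.85-fold, adjusted p = 0.0105), with -0.72 between DT3 and HT3. Amy1 lost its call without DT1 or HT1 (adjusted p of 0.0526 and 0.0603). Besides 1810009J06Rikl, the ribonuclease Rnase4 was higher, by 0.95 ± 0.18 (1.93-fold, adjusted p = 0.0267), and lost its call without DT1, HT1 or HT3 (0.0988, 0.0859 and 0.0944), with 0.63 (0.0619) in its second probe set.

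The amylases and Tff2 differed far more in untreated animals, and most acinar markers did not. In DU minus HU, Cpa1, Cela1, Ctrb1, Pnlip and Prss1 lay between -0.09 and 0.03, and the median of the enzyme list was 0.01. Amy2a3 differed by -5.18 in DU compared to HU, Amy1 by -6.09 and the trefoil peptide Tff2, which protects mucosa, by -5.36. Tff2 had levels of 13.09, 12.96 and 12.97 in DT and 13.36, 13.47 and 13.41 in HT. Every DT array was slightly below every HT array, the difference of -0.40 ± 0.12 had an adjusted p of 0.158, and the interaction, (DT minus HT) minus (DU minus HU), was 4.95 ± 0.17 (adjusted p = 3.71e-09). For Amy2a3 the interaction was 5.15 ± 0.60 (adjusted p = 0.00107), and for Amy1 it was 4.58 ± 0.35 (adjusted p = 2.01e-05). Among 29 measured acinar transcription factors and zymogen granule genes, only Gamt, already described, was called in DT compared to HT. That is 3.45% of the list, against 1.19% of all genes, and the list median was 0.02. An interaction above 0 was called for 2 of the 29, against 0.271% of all probe sets. Cuzd1, a zymogen granule protein, was one such gene (0.77 ± 0.10, adjusted p = 0.00175), with levels of 13.94, 13.93 and 13.96 in DT and 13.65, 13.73 and 13.67 in HT.

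Genes of fatty acid oxidation marked diabetes in untreated animals, and few of them did under tungstate. Of 53 measured genes of fatty acid oxidation, ketogenesis and Ppar targets, 18 were called higher and 1 lower in DU compared to HU, where 1.47% of all probe sets were called higher. In DT compared to HT, 1 was called higher and none lower, or 1.89% against 1.19% of all genes. The median was -0.02 there and 0.20 in DU compared to HU. The interaction was below 0, and called, for 8 of the 53, against 0.151% of all probe sets. Decr1, a reductase of unsaturated acyl-CoA, had levels of 8.58, 7.90 and 8.55 in DT and 7.55, 7.71 and 7.85 in HT, a difference of 0.64 ± 0.15 (adjusted p = 0.0618), whereas DU exceeded HU by 2.92. Its interaction was -2.27 ± 0.21 (adjusted p = 0.000113). For Hadhb, a subunit of the mitochondrial trifunctional protein, DT exceeded HT by 0.40 ± 0.09 (adjusted p = 0.0582) and DU exceeded HU by 1.12, with an interaction of -0.71. Acadl, Ech1, Ehhadh, Hadh, Angptl4 and Txnip, which are named here after their values were seen, made up the rest of the 8, with interactions from -2.21 to -0.86. Leaving out an array ended this call for Hadhb in 9 of 12 fits, up to 0.119 without HU1, for Ehhadh in 8, up to 0.0927 without HT3, and for Ech1 without HU1 (0.0575). In Acadl, Ech1, Ehhadh, Hadh, Angptl4 and Txnip, DT minus HT lay between -0.12 and 0.37 and was called in none of the 6. Txnip, a thioredoxin-interacting protein, is a member of the list but no enzyme of fatty acid oxidation. Over the 18 genes chosen for their call in DU compared to HU, DT minus HT ranged from -0.12 to 0.64 with a median of 0.19.

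**Figure D3:**
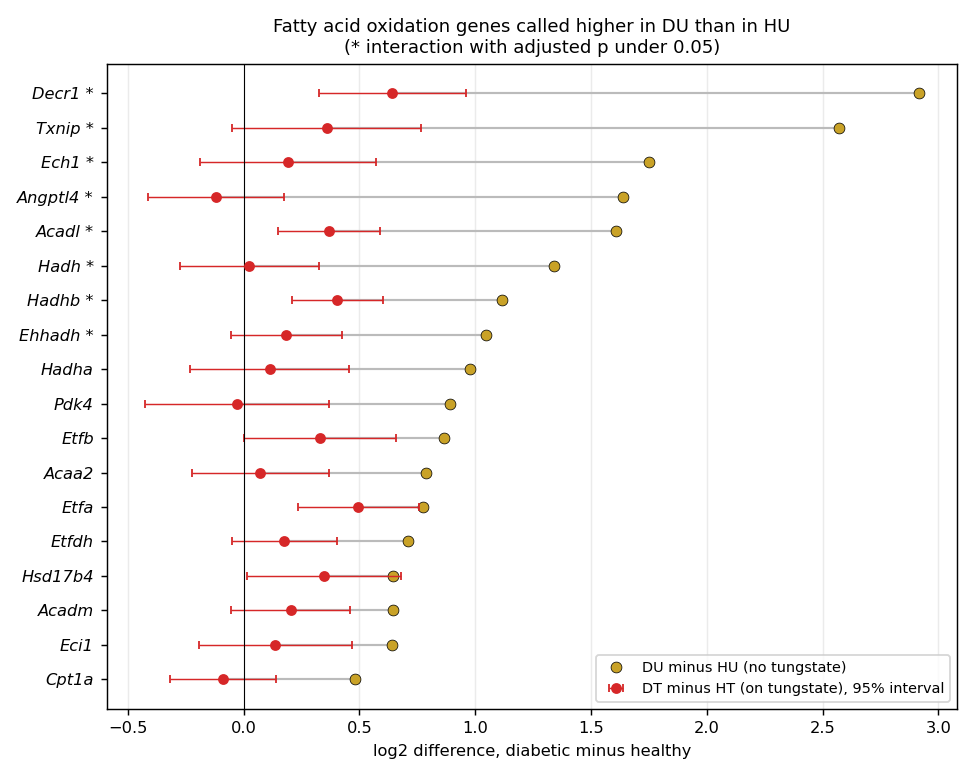
Differences between diabetic and healthy animals (log2, horizontal axis), without tungstate (yellow) and on tungstate (red, with the 95% interval of limma). Shown are 18 genes called higher in DU than in HU from the list of fatty acid oxidation, ketogenesis and Ppar targets, including Txnip. The genes were chosen by the yellow values, the 8 with an asterisk have an interaction with an adjusted p under 0.05, and the red values lie between -0.12 and 0.64.

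The gene of this list called higher in DT was Crot, a peroxisomal carnitine acyltransferase, with levels of 7.17, 7.09 and 7.17 in DT and 6.71, 6.55 and 6.63 in HT (0.52 ± 0.09, adjusted p = 0.0158). It lost its call without DT1 or HT2 (0.0704 and 0.0684), and its second probe set gave 0.19 (0.550). For Cpt1a, which admits fatty acids to mitochondria, the probe sets disagreed. The dimmer gave 8.06, 7.03 and 7.96 in DT and 6.28, 6.73 and 6.58 in HT, a difference of 1.15 ± 0.21 (2.22-fold, adjusted p = 0.0222), and the brighter gave -0.09 (adjusted p = 0.786). The dimmer lost its call without DT1, HT1 or HT3 (adjusted p of 0.0988, 0.122 and 0.0637).

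Of 41 measured genes that make fatty acids, triglycerides and cholesterol, 1 was called lower and none higher in DT. That is 2.44% of the list, against 1.19% of all genes, and the median was -0.02. The gene called lower was Scd, the desaturase that makes monounsaturated fatty acids, with levels of 7.51, 7.44 and 8.05 in DT and 9.16, 8.73 and 8.73 in HT. The groups did not overlap, the difference was -1.21 ± 0.17 (2.31-fold, adjusted p = 0.00450) and DT3 minus HT3 was -0.68. Scd kept its call whichever array was left out, but not with the chip lot as a block (adjusted p = 0.0635). Thrsp, a lipogenic gene under thyroid hormone, differed by -1.01 ± 0.24 (adjusted p = 0.0727). Of 48 measured genes of glucose metabolism, 1 was called higher (2.08%, against 1.19% of all genes), and the median was -0.02. It was the pyruvate dehydrogenase subunit Pdha1 (0.55 ± 0.11, adjusted p = 0.0327). The call of Pdha1 was lost in 6 of 12 fits with an array left out, with 0.132 as the highest adjusted p, without DT1, and its second probe set gave 0.15 (0.482). No gene was called among 30 of insulin and insulin-like growth factor signalling, whose median was 0.03.

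Genes of protein synthesis and folding tended to be higher in DT, by small amounts. All 37 measured genes of cytosolic ribosomal proteins had a difference above 0, compared to 4833 of 10411 genes on the array. The median was 0.25, it was 0.30 in DT3 minus HT3, and it was 0.11 in DU compared to HU. Calls made up 8.11% of the list, against 1.19% of all genes. Rpl26, Rps9 and Rps24, of the large and the small subunit, were the 3 called higher, by 0.50 ± 0.09, 0.41 ± 0.08 and 0.41 ± 0.09 (adjusted p of 0.0254, 0.0324 and 0.0459). Rps24 had levels of 12.92, 12.77 and 12.82 in DT and 12.36, 12.46 and 12.44 in HT, and its second probe set gave 0.01 (adjusted p = 0.963). These calls were lost in 3, 4 and 10 of the 12 fits with an array left out, with the highest adjusted p, of 0.107, 0.129 and 0.187, without DT1 for Rpl26 and without HT1 for Rps9 and Rps24. The median of the list fell to 0.14 when the deposited values were quantile normalized again, and was 0.24 with the chip lot as a block.

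Among 60 measured genes of the unfolded protein response and endoplasmic reticulum chaperones, 3 were called higher, against 0.637% of all probe sets, and none lower in DT, 44 differences were above 0 and the median was 0.11. Renewed quantile normalization brought that median to 0.02. Trib3, a pseudokinase induced by stress of the endoplasmic reticulum, had levels of 8.15, 8.52 and 8.50 in DT and 7.21, 7.39 and 7.72 in HT (0.95 ± 0.13, 1.94-fold, adjusted p = 0.00450). It kept its call whichever array was left out, but its other 2 probe sets gave 0.37 and 0.53 with adjusted p of 0.0649 and 0.113. Sec62, of the translocation channel, was higher by 0.74 ± 0.14 (adjusted p = 0.0265) and Dnajc3, an inhibitor of the kinase Perk, by 0.35 ± 0.07 (adjusted p = 0.0428). Sec62 lost its call without DT1, HT1 or HT3 (0.102, 0.133 and 0.0954) and had a second probe set at 0.52 (0.593). Dnajc3 lost its call in 11 of 12 such fits, with a highest value of 0.186 without HT1. In the respiratory chain, Ndufv2 was the 1 called gene of 53 measured (1.89%, against 1.19% of all genes), and the median was 0.12. Ndufv2 differed by 0.52 ± 0.11 (adjusted p = 0.0423). Its call was lost in 7 of 12 fits with an array left out, up to 0.16 without HT1. No proteasome subunit of 32 measured was called, and their median was 0.05.

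Of 59 measured antioxidant and detoxifying enzymes, 3 were called higher and 2 lower, against 0.637% and 0.296% of all probe sets, and the median was 0.02. Gpx1, the glutathione peroxidase that removes hydrogen peroxide, had levels of 12.09, 11.80 and 11.87 in DT and 9.88, 10.67 and 11.16 in HT. The HT arrays were spread over more than 1 log2 unit, and the difference was 1.35 ± 0.25 (2.55-fold, adjusted p = 0.0222), with 0.71 between DT3 and HT3. Aldh3a2, a fatty aldehyde dehydrogenase, was higher by 1.10 ± 0.17 (adjusted p = 0.00850), while Gstm5, a glutathione transferase, was lower by -0.56 ± 0.10 (0.0169) and Aldh1a1, which makes retinoic acid, by -0.72 ± 0.13 (0.0193). Gpx1 lost its call without DT1, HT1 or HT2 (adjusted p of 0.0988, 0.0515 and 0.0624), Aldh3a2 without HT1 (0.0515), and Gstm5 and Aldh1a1 without any of 4 arrays each, DT1 and HT1 among them (0.0585 and 0.0827 for Gstm5, 0.0738 and 0.0985 for Aldh1a1). Of 15 measured metallothioneins and zinc transporters, the importer Slc39a8 was the 1 called (6.67%, against 1.19% of all genes), and the median was 0.02. Slc39a8 was higher by 0.58 ± 0.09 (adjusted p = 0.0102), and lost its call without DT1 or HT1 (0.0542 and 0.0580). In the list of trefoil, Reg and pancreatic stress genes, Tspan8 was called higher and Clu and Sox4 lower, of 32 measured, with a median of -0.01. These calls were 9.38% of the list, against 1.19% of all genes.

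Markers of leukocytes and matrix differed between the arrays of the DT group. None of 42 measured leukocyte genes was called, and their median was -0.17. However, it was -0.42 in DT1 and DT2 compared to HT1 and HT2, and 0.21 in DT3 compared to HT3. Cd74, the invariant chain of class II antigen presentation, had levels of 8.32, 9.32 and 10.63 in DT and 11.03, 10.47 and 10.39 in HT. DT1 and DT2 lay below all HT arrays for 22 of the 42 leukocyte genes, against 15.7% of all genes, and DT3 lay above HT3 for 32, against 47.1% of all genes. The summed linear signal of the leukocyte list was 7461, 8522 and 13976 in DT1, DT2 and DT3 and between 11109 and 14032 in HT.

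Matrix genes were distributed in the same way, with 2 called higher and 1 lower of 51 measured stellate cell, fibroblast and matrix genes. These calls were 5.88% of the list, against 1.19% of all genes. The median of the list was -0.14, or -0.20 without DT3 and HT3 and 0.02 between those 2 arrays. Collagen Col3a1 had levels of 7.16, 7.39 and 8.31 in DT and 8.74, 8.92 and 8.42 in HT (-1.07 ± 0.26, adjusted p = 0.0744), and the collagen subunit Col6a2 was lower by -0.54 ± 0.10 (adjusted p = 0.0193). Its call was lost without DT1, DT2, HT1 or HT3 (adjusted p of 0.0704, 0.0506, 0.0859 and 0.0644), and the other Col6a2 probe set gave -0.08 (0.712). The called rises of the list were Tgfb3, which is described among the genes the study followed up, and the laminin subunit Lamb1 (0.90 ± 0.18, adjusted p = 0.0380), whose call was lost in 6 of 12 fits, up to 0.155 without DT1. The endothelial list, with 13 measured genes, had no call and a median of -0.15, which was -0.18 in arrays 1 and 2 and 0.06 between DT3 and HT3. Summed linear signals of the matrix list were 10825, 10911 and 13528 in DT and from 12307 to 13617 in HT, so that DT1 and DT2 had less signal of leukocytes and matrix than any HT array and DT3 did not. The part of these cell types in the other differences between DT and HT was not tested.

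The remaining lists held 1 call or none. A single call was 4.17% of the duct list and 6.25% of the muscle list, against 1.19% of all genes. Of 24 measured duct and keratin genes, the carbonic anhydrase Car2 was the 1 called, lower by -0.34 ± 0.07 (adjusted p = 0.0415), in a call lost in 9 of 12 fits, with a highest value of 0.159 without HT1, and its second probe set gave -0.06 (0.892). The median of the duct list was 0.02. Of 16 muscle genes, the myosin Myh1 was called lower, by -0.68 ± 0.14 in the probe set with the highest mean (adjusted p = 0.0377), and the median was -0.06. That call was lost in 6 of 12 fits, up to 0.149 without DT1. Of the other 4 Myh1 probe sets, 2 were called, at -0.83 and -0.77 (adjusted p of 0.00450 and 0.00955), and 2 were not, at -0.44 and -0.56 (0.576 and 0.114). No gene was called among 11 adipocyte genes, 13 nerve and Schwann cell genes or 5 erythroid genes, with medians of 0.00, -0.08 and -0.32. Hbb, the beta chain of haemoglobin, had levels of 10.19, 9.98 and 10.99 in DT and 11.67, 11.10 and 11.60 in HT (-1.07 ± 0.28, adjusted p = 0.103).

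**Figure D4:**
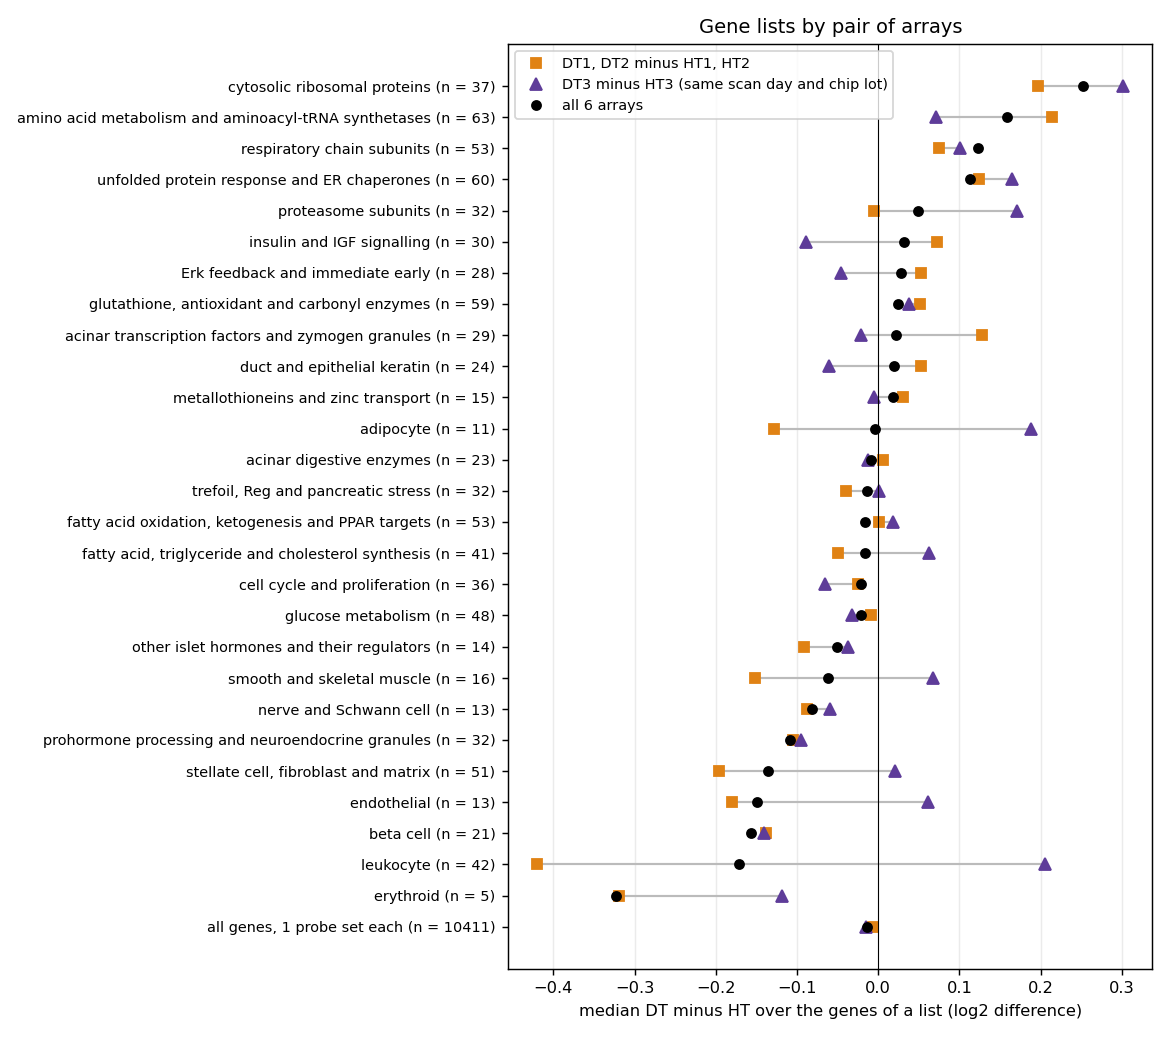
Median difference of DT minus HT (log2, horizontal axis) over the measured genes of each list (vertical axis, n is the number of genes), in all 6 arrays (black), in arrays 1 and 2 (orange) and between DT3 and HT3 (purple). The leukocyte list lies at -0.42 in arrays 1 and 2 and at 0.21 between DT3 and HT3, whereas the ribosomal protein list lies above 0 and the beta cell list below 0 in each.

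A further list of 11 measured genes came from those the study followed up, most of them chosen on these same arrays, so their values are no independent evidence. The study speaks of amylase without giving the gene, and both Amy2a3 and Amy1 were listed for it. Tspan8 and Tgfb3 were called higher and Ins2 lower in DT compared to HT, and of the amylases Amy1 was called lower and Amy2a3 was not called. The calls were 36.4% of this list, against 1.19% of all genes. Transforming growth factor beta 3 (Tgfb3) had levels of 8.93, 8.49 and 8.70 in DT and 7.96, 8.03 and 8.25 in HT (0.63 ± 0.12, 1.54-fold, adjusted p = 0.0290). It lost its call without DT1, HT1 or HT2 (adjusted p of 0.124, 0.146 and 0.0935). The intracellular fibroblast growth factor Fgf13 had levels of 8.75, 7.55 and 8.29 in DT and 7.33, 7.41 and 7.23 in HT, so that all DT arrays were higher, with a difference of 0.87 ± 0.21 (adjusted p = 0.0744). Without DT2, the lowest of the DT arrays, Fgf13 was called, at 1.2 (adjusted p = 0.00123).

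Sostdc1, an antagonist of bone morphogenetic proteins, differed by 0.51 ± 0.13 (adjusted p = 0.0763), and Xbp1, the transcription factor of the unfolded protein response, by 0.32 ± 0.08 (0.0794). Pebp1, which binds and inhibits Raf kinase, differed by -0.37 ± 0.09 (0.0846), the stress protein Nupr1 by 0.28 ± 0.19 (0.580) and Sel1l, of endoplasmic reticulum degradation, by 0.05 ± 0.11 (0.892). None of these passed the test with all 12 arrays, and without DT2 Sostdc1 did, at 0.64 (0.0298). Their interactions were called for Xbp1 (0.88 ± 0.11, adjusted p = 0.00170), Sel1l (1.09 ± 0.15, 0.00410), Sostdc1 (1.10 ± 0.18, 0.0149) and Pebp1 (-0.67, 0.0427), which means that DT minus HT and DU minus HU differed in these genes. That of Pebp1 was lost in 9 of 12 fits with an array left out, up to 0.133 without HU1, and that of Sostdc1 without DU1, DU2, HT1 or HU1, up to 0.0577.

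The comparison of diabetic with healthy rats without tungstate, DU compared to HU, has no array in common with DT compared to HT, although both comparisons have diabetic arrays in chip lot 1 and healthy arrays in lot 2. The lots were divided differently, since HU3 was in lot 1 together with DU1 and DU2. DU1 was scanned on the same day as DT1 and DT2, and HU3 on the same day as HT1 and HT2. The part of scan day and chip lot in the shared calls was not tested. DU compared to HU called 507 probe sets (3.2%), of which 53 were also called under tungstate. Of these, 52 had the same sign, 23 higher and 29 lower, which is 35.1% of the calls in DT compared to HT and 10.3% of those in DU compared to HU. The exception was Anpep, an aminopeptidase of the cell surface, named here after its values were seen. It was higher in DT by 0.62 ± 0.13 (adjusted p = 0.0423) and lower in DU by -0.78 (adjusted p = 0.00474), and its call in DT was lost in 6 of 12 fits with an array left out, up to 0.185 without HT1. The sign was the same in both comparisons for 122 of the 148 calls (82.4%), compared to 63.3% of all probe sets, and over all probe sets, which are no independent replicates, the 2 differences had a Pearson correlation of 0.43 and a Spearman correlation of 0.37. Differences over 2-fold were found in 49 probe sets under tungstate and 85 without it.

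The islet genes were among the shared calls. Ins2 was lower by -4.71 in DU compared to HU, Ins1 by -2.97, Iapp by -2.13, Slc2a2 by -1.88, Cpe by -1.92, Resp18 by -1.10 and Pcsk2 by -0.80. Their interactions were not called, with 1.41 ± 0.44 for Ins2 (adjusted p = 0.319), 0.85 ± 0.34 for Ins1 (0.483) and -0.02 for Pcsk2 (0.989). The rise of 1810009J06Rikl was shared as well, with an interaction of -0.70 (0.596), as was that of Gpx1, at 1.93 in DU compared to HU.

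The interaction was called for 67 probe sets (0.422%), 43 above and 24 below 0. It was called for 48 of the 507 probe sets that differed without tungstate and for 19 of the 148 that differed under it. Among the genes with the smallest adjusted p, Tdh, a threonine dehydrogenase, differed by 4.21 between DU and HU, and its levels were 6.52, 6.47 and 6.58 in DT and 6.95, 7.30 and 6.43 in HT. Those overlapped, and the interaction was -4.58 (adjusted p = 6.65e-05). Ppcdc, an enzyme of coenzyme A synthesis, differed by 2.55 between DU and HU and by -0.01 between DT and HT (interaction -2.56, adjusted p = 1.13e-06). The carbonyl reductase Cbr1 differed by 2.36 and 0.19 (interaction -2.16, 6.82e-05), and the cytochrome Cyp2d2 by -1.32 and 0.16 (interaction 1.48, 0.000398).

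Other interactions went with a rise that was seen under tungstate. Sat1 had levels of 6.47, 6.44 and 6.37 in DU and 6.49, 6.29 and 6.51 in HU, a difference of 0.00 (adjusted p = 0.984), and an interaction of 1.37 ± 0.15 (adjusted p = 0.000435). Tspan8 differed by -0.20 between DU and HU (adjusted p = 0.408), with an interaction of 1.55 (0.00110). For Herc4 the interaction was 2.97 (0.0120), for C2cd4b 1.62 (0.0390) and for Tc2n 1.07 (0.0210). Leaving out an array ended the interaction call of C2cd4b in 8 of 12 fits, up to 0.139 without HU1, and that of Tc2n in 7, up to 0.0780 without HU1. Errfi1, Dusp6 and Gls2 were not called in DU compared to HU either, and their interactions of 1.11, 1.73 and 0.91 did not pass the test (adjusted p of 0.369, 0.103 and 0.134).

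**Figure D5:**
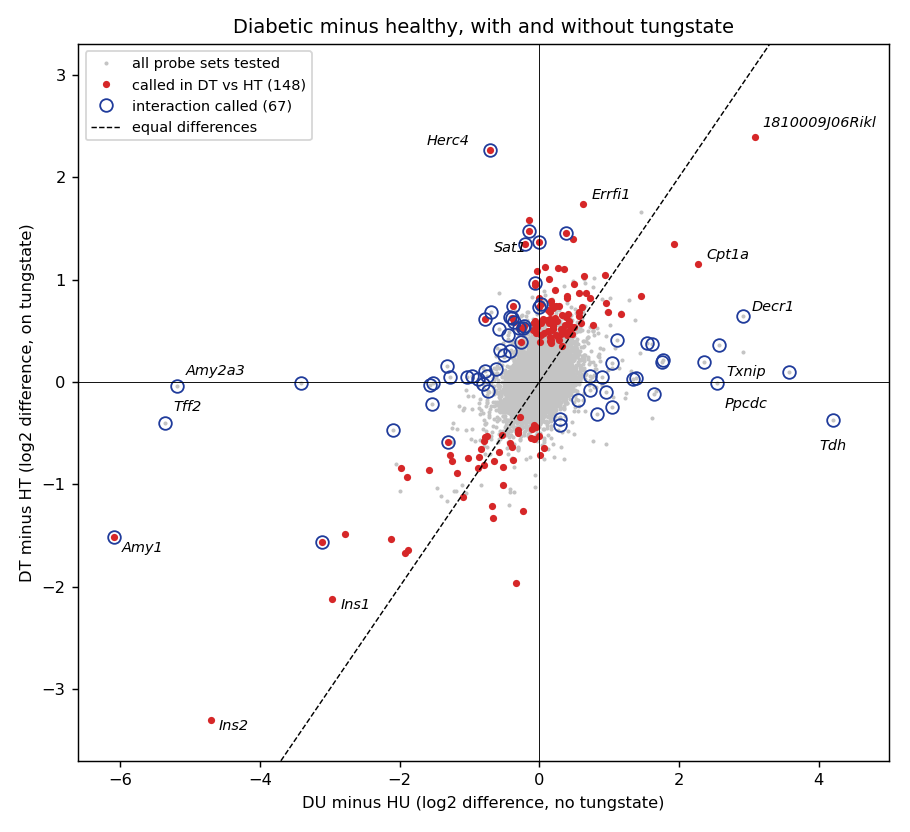
Difference of DT minus HT (log2, vertical axis) against DU minus HU (log2, horizontal axis) for the 15866 probe sets tested, with the 148 calls of DT compared to HT in red and the 67 called interactions ringed in blue, and the dashed line where both differences are equal. The insulin genes lie at the lower left, Sat1 and Herc4 are high on the vertical axis and near 0 or below it on the horizontal, and Tff2, Amy2a3 and Tdh are far out on the horizontal axis with little difference on the vertical.

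Because DT3 and HT3 were the only arrays that shared a scan day and a chip lot across the groups, calls made without them were followed in this pair. Without DT3 and HT3, 184 probe sets were called, 88 higher and 96 lower, of which 95 were among the 148. DT3 minus HT3 had the same sign as the call in 141 of the 184 (76.6%), compared to 55.1% of all probe sets. It did so for 78 of the 88 higher and for 63 of the 96 lower calls. The median size was 0.74 in the 4 arrays that made the calls and 0.31 in the pair left out. Of the 50 called genes of DT compared to HT that are named here, 14 kept their call whichever of the 12 arrays was left out: Ins1, Ins2, Slc2a2, Pcsk2, Scd, 1810009J06Rikl, Herc4, Errfi1, C2cd4b, Tc2n, Gls2, Sat1, Tspan8 and Trib3. When limma was fitted to only the 6 arrays compared, Herc4, C2cd4b and Trib3 of these were not called (adjusted p of 0.0536, 0.0536 and 0.0534). A block for the chip lot left 17 of the 50 called, and a block for the scan day left 7.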

How the data were processed

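Expression in rat pancreas was measured on 12 RAE230-A arrays, 3 for each of HU, HT, DU and DT. The authors made the deposited log2 values by RMA with the affy package, and its version was not given in the sources used here. Quantile normalization within RMA can compress differences between arrays. Precision is limited by the number of arrays. Scan day and chip lot were read from the array records. Of 15923 probe sets, 57 controls were left out, 12783 of the rest had 1 gene symbol, 312 several and 2771 none.

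A mean per group was fitted with limma 3.58.1 in R 4.3.3 over the 12 arrays. The contrasts were DT minus HT, DU minus HU and their difference, the interaction. Probe sets with a Benjamini-Hochberg adjusted p under 0.05 over all probe sets were called. Errors with ± are limma's standard errors. The fit was tested on simulated data with equal spread in all groups and no effect of scan day or chip lot. That test therefore does not bear on how these affect the calls.

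Named genes were the 12 largest rises and the 12 largest falls among calls with 1 symbol and arrays that did not overlap, the genes the study names, up to 4 genes with the smallest adjusted p of each list, the 8 genes with the smallest adjusted p of the interaction, and genes said to be named after their values were seen. Lists used 1 probe set per gene, that with the highest mean. The comparison, the gene lists and the rules were chosen with earlier results of these data known. Alternatives were other normalizations, filters, fits, thresholds and blocks, and leaving out arrays. Promoters are RefSeq sequences.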

Additional observations from a re-analysis of the deposited data

Results flagged for a closer look

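The interaction tests whether the difference between diabetic and healthy animals itself differed with tungstate, and 67 probe sets passed it at an adjusted p under 0.05 by limma. The named genes among them were singled out for this test of the difference, and their interactions, (DT minus HT) minus (DU minus HU), are given here as log2 values with no explanation.

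Among acinar and secreted products, the interaction was 4.95 for Tff2, 4.58 for Amy1, 5.15 for Amy2a3, 0.774 for Cuzd1 and 1.4 for Anpep. In lipid metabolism it was -2.27 for Decr1, -0.711 for Hadhb, -1.24 for Acadl, -1.56 for Ech1, -0.863 for Ehhadh, -1.31 for Hadh and -1.75 for Angptl4. For Txnip, a thioredoxin-interacting protein, it was -2.21. The other metabolic enzymes had -2.56 for Ppcdc, -4.58 for Tdh, -2.16 for Cbr1, 1.48 for Cyp2d2 and 1.37 for Sat1. For the genes of protein folding it was 0.88 for Xbp1 and 1.09 for Sel1l. For signalling genes it was 1.02 for Tgfb3, 1.1 for Sostdc1 and -0.669 for Pebp1. It was 2.97 for Herc4, 1.62 for C2cd4b, 1.07 for Tc2n, 1.55 for Tspan8 and 0.941 for the zinc importer Slc39a8. Of these 28 genes, 20 kept the call whichever array was left out, 27 kept it under a chip lot block and 15 under a scan day block.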

How the results depend on the processing

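The count of 148 calls in DT compared to HT was 32 when only the 6 arrays compared were fitted, 25 under a scan day block (10 shared with the 148), 52 under a chip lot block (48 shared) and 45 at an adjusted p under 0.01. The 154 probe sets selected by the B-statistic became 95 with 6 arrays, 92 under a chip lot block and 439 with a prior proportion of 0.05. Interactions numbered 37 under a scan day block and 29 at an adjusted p under 0.01, and shared calls of the same sign with DU compared to HU, 52 in all, numbered 6, 21 and 14 with the scan day, with the chip lot and at 0.01. Leaving out 1 array gave 51 (without DT1) to 286 calls (without DT3), 104 to 226 by the B-statistic, 32 to 89 interactions and 18 to 88 shared calls. Without HT1 there were 60 calls and without HT2 86. Scg2 was 0.05713 in DT3 minus HT3 and under a scan day block, the opposite sign to its call. Under renewed quantile normalization, median centring, a filter on dim probe sets, trend and robust fitting, random blocks and without DT3 and HT3, a choice made after seeing the data, the count of calls stayed between 124 and 184. Deviations of DT and HT arrays with the same number correlated at -0.0983, -0.146 and 0.107, and those of other combinations at -0.0893 to 0.216. Deviations from a group mean are tied to each other, so these values cannot decide whether replicate numbers pair the samples. With the replicate number as a block there were 157 calls, 123 of them among the 148, 75 interactions and 56 shared calls. The cause of these changes was not tested.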
